A study of Mus musculus with 30 samples.

Results

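The potassium channel genes of the mouse nucleus accumbens were followed across 2 surgeries and 3 treatments. They were taken from the deposited count table as the gene IDs whose symbol starts with Kcn, goes on with a subfamily letter code and ends in a number. Kcnj8, Kcnj10 and Kcnj13 were left out, and a mean of at least 1 CPM over the 30 libraries was required. CPM is a gene's count scaled to a common library size, after TMM scaling, which evens out library composition. Of the 55401 gene IDs in the table, 89 had such a symbol and 72 of these reached the level. The other 17 stayed under it. The nearest below were Kcnk5 at 0.703 CPM, Kcne2 at 0.579 CPM and Kcne4 at 0.459 CPM, and the nearest above were Kcnj14 at 1.51 CPM, Kcnh8 at 1.86 CPM and Kcnmb2 at 1.95 CPM. All 72 passed the filter on low counts and were tested. By name they comprised 6 Kcna, 2 Kcnb, 4 Kcnc, 3 Kcnd, 8 Kcnh, 10 Kcnj, 9 Kcnk and 5 Kcnq genes. The 25 others were 9 auxiliary subunits (Kcnab, Kcnip and Kcnmb), 9 silent voltage-gated subunits (Kcnf, Kcng, Kcns and Kcnv) and 7 genes grouped as calcium- or sodium-activated channels (Kcnma, Kcnn, Kcnt and Kcnu). The last group was set by gene name, and Kcnu1 is in it by name only.

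RNA was sequenced from punches of both accumbens of male C57Bl/6J mice, with 1 animal per library. The mice had a tibial nerve injury (SNI, for spared nerve injury, a surgical model of neuropathic pain) or sham surgery. Treatment began 4 weeks later. They were injected intraperitoneally for 3 weeks, 2 times a day, with saline, with tianeptine (TIAN) at 30 mg/kg or with desipramine (DMI) at 15 mg/kg. Tianeptine is an antidepressant and mu opioid agonist. Desipramine, a tricyclic, blocks the reuptake of noradrenaline. There were 5 Sham-Saline, 6 Sham-TIAN, 4 Sham-DMI, 5 SNI-Saline, 6 SNI-TIAN and 4 SNI-DMI libraries, and sham mice on saline were the controls. Ages are not given in the sources used.

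Potassium channels let potassium leave the cell, set the resting potential and end action potentials. The Kcna, Kcnb, Kcnc, Kcnd, Kcnh and Kcnq genes encode voltage-gated pore subunits, Kcnj genes inward rectifiers and Kcnk genes leak channels. Medium spiny neurons, the projection neurons of the striatum, rest at a very negative potential held by inward rectifiers and fire late because of inactivating Kcna and Kcnd currents. Opioid and other Gi/o-coupled receptors open the G protein-gated rectifiers encoded by Kcnj3, Kcnj5, Kcnj6 and Kcnj9.

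The libraries numbered 1 to 4 in each group (24 libraries, the first set) held 24509833 to 37688334 counts each, and those numbered 5 and 6 (6 libraries, the second set, none on desipramine) held 98039371 to 120674591 counts. The tissue was checked on 20 marker genes of medium spiny neurons. Their summed level was 8685 to 12043 CPM in Sham-Saline and 1815 to 11205 CPM in SNI-DMI, with none at 0 in either group. SNI-DMI replicate 2 held that lowest sum. Summed markers of cortical excitatory neurons were 1104 to 1439 CPM in 5 libraries (Sham-DMI replicates 1 and 3, Sham-TIAN replicate 5, SNI-Saline replicate 5 and SNI-TIAN replicate 4) and at most 717 CPM in the rest.

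Levels of different genes were compared as CPM per kilobase of merged exons, which sets long and short transcripts side by side. Kcnj4, an inward rectifier pore, had the highest level at 83.5 ± 23.9 CPM per kilobase (SD, n = 30). Kcnip2, a calcium-binding partner of the Kcnd pores, followed at 73.5 ± 19.98 CPM per kilobase, and Kcnab2, a cytoplasmic beta subunit of the Kcna pores, at 55.1 ± 9.19. The mean ± SD ranges of neighbours among these 3 overlapped, and the genes were not tested against each other within libraries. Kcnip3 (38.7), the sodium-activated Kcnt1 (32.5), Kcnd2 (30.3), Kcnab1 (28.8), Kcnh3 (26.7) and Kcnc1 (25.5 CPM per kilobase) were also among the highest 10. With the longest transcript in place of merged exons, the highest 10 genes were the same 10 of 10. At the other end were Kcnh8 at 0.409, Kcng4 at 0.530, Kcnj14 at 0.557, Kcnmb2 at 0.623 and Kcnj5 at 0.680 CPM per kilobase. The highest mean level was 204 times the lowest.

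Most subfamilies had 1 or a few leading members. Among Kcna genes, the axonal pores Kcna2 (20.2) and Kcna1 (20.1 CPM per kilobase) were level, and Kcna3 was lowest at 3.39. Kcnb2, a slow delayed rectifier, was at 1.80 CPM per kilobase. Among Kcnc genes, Kcnc1 led at 25.5, Kcnc4 was at 12.4 and Kcnc2 was lowest at 7.58 CPM per kilobase. Kcnd2, a main pore of the A-type current, was at 30.3, Kcnd3 at 10.2 and Kcnd1 at 3.77 CPM per kilobase. The leak channels were led by Kcnk1 (22.4) and Kcnk2 (20.7), with Kcnk10 lowest at 0.741 CPM per kilobase. Kcnq5 and Kcnq3, pores of the M current that restrains repeated firing, were at 22.8 and 16.6 CPM per kilobase. Kcnf1, which forms no channel of its own and modifies Kcnb pores, led the silent subunits at 20.7 CPM per kilobase.

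Summed over the 72 genes, the level was 1011 ± 71.5 CPM per kilobase in Sham-Saline (SD, n = 5), 1016 ± 19.99 in Sham-DMI (n = 4) and 847 ± 109 in SNI-DMI (n = 4). It was 961 ± 123 in Sham-TIAN (n = 6), 897 ± 134 in SNI-Saline (n = 5) and 942 ± 35.9 in SNI-TIAN (n = 6). The 10 Kcnj genes gave 16.2 ± 1.20% of the sum in Sham-DMI and 12.8 ± 1.94% in SNI-DMI. In the other 4 groups the Kcnj share was between 14.8% and 15.6% on average, so Sham-DMI was itself the highest. The 4 Kcnc genes gave 5.70 ± 1.08% in Sham-DMI and 11 ± 5.17% in SNI-DMI. In the other 4 groups the Kcnc share was between 5.75% and 6.78% on average, so SNI-DMI was both the highest and the most variable group.

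**Figure D1:**
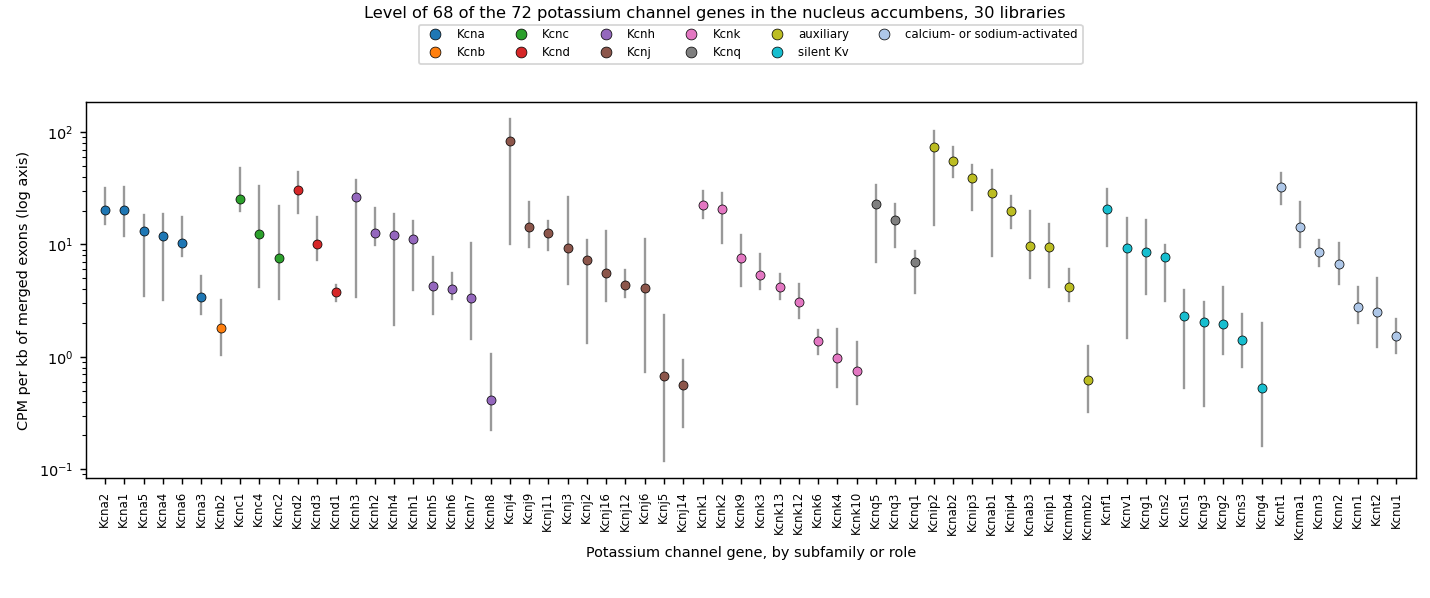
Mean level over the 30 libraries in CPM per kilobase of merged exons (log axis) for 68 of the 72 potassium channel genes, grouped by subfamily or role; grey lines span the lowest to the highest library. Kcnj4 (83.5) and Kcnip2 (73.5) sit on top, and Kcnh8 (0.409) is lowest.

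The coefficient of variation of the CPM over the 30 libraries had a median of 23.8% among the 72 genes, beside 14% among all genes of at least 1 CPM. It was highest for Kcnj5, at 75.4%. SNI-DMI replicate 2 gave the highest value of the 30 libraries for 23 of the 72 genes and the lowest for 24. That is 65.3% of them, beside 38.6% of the 18637 genes at 1 CPM or more. Kcnj4 was 21.9 CPM there and 96 to 283 CPM in the other libraries.

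Other genes were high in the 5 libraries with the highest cortical markers. Kcnj6, a G protein-gated pore, was 85.8 CPM in Sham-TIAN replicate 5, 82.7 in Sham-DMI replicate 3, 74.7 in SNI-Saline replicate 5, 68.7 in Sham-DMI replicate 1 and 56.1 in SNI-TIAN replicate 4. In every other library it was at most 43.7 CPM. Kcnj3, its usual partner in neurons, was at least 81.8 CPM in those 5 libraries and at most 65.5 CPM elsewhere. Kcnj9, Kcnip3 and Kcnh7 (the last chosen after its values were seen) had the same 5 libraries on top. Kcnip3 did so narrowly, at 158 CPM or more there and at most 155 CPM elsewhere. In all, 5 of the 72 genes had these libraries on top, and the share over all genes was not counted. Kcnj5, also a G protein-gated subunit, had 0 of these libraries among its 5 highest. The part of cortical tissue in these values was not tested, and in bulk RNA fewer cells of a type and less RNA per cell cannot be told apart.

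**Figure D2:**
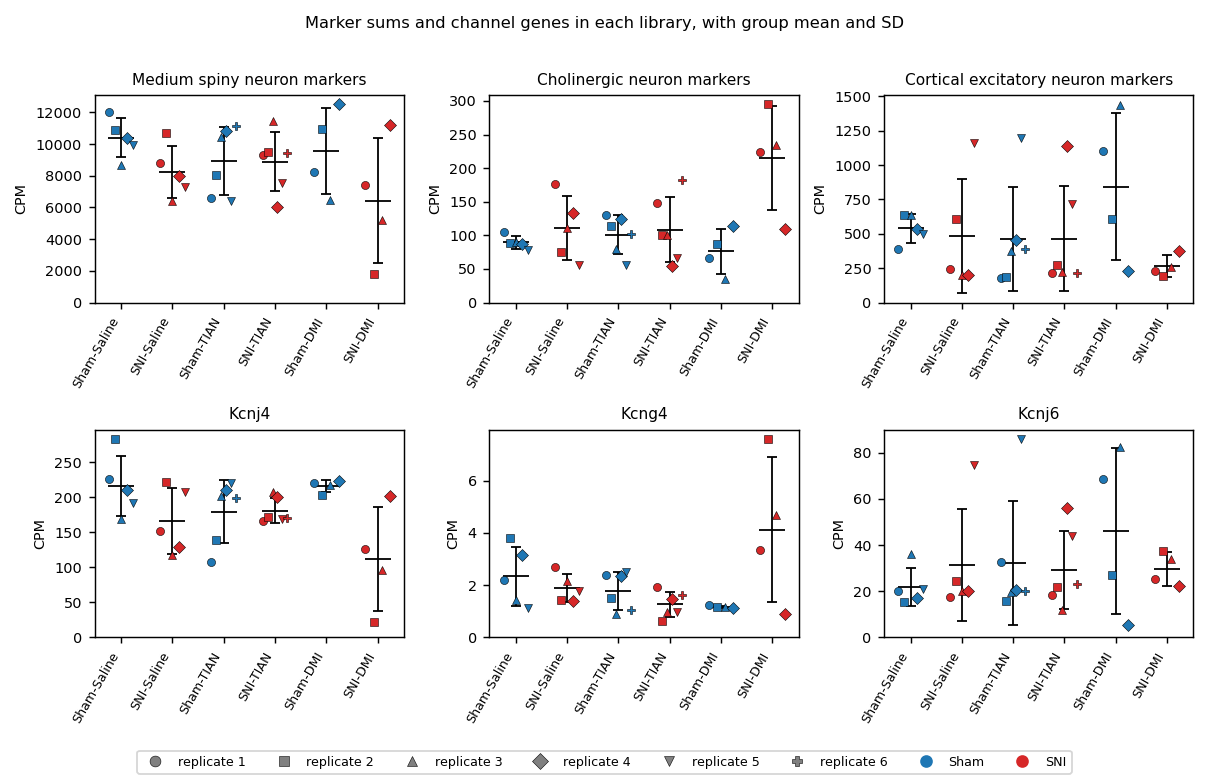
Summed CPM of marker genes of 3 neuron types (upper row) and CPM of Kcnj4, Kcng4 and Kcnj6 (lower row) in each library of the 6 groups. SNI-DMI replicate 2 is lowest in medium spiny markers (1815) and in Kcnj4 (21.9), and the 5 libraries highest in cortical markers are the 5 highest in Kcnj6.

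Each comparison was a contrast in 1 edgeR quasi-likelihood model of the 30 libraries with a term for the library set, and p-values were adjusted over the 23736 genes tested. A gene passed at an adjusted p under 0.05. Of the 72 channel genes, 19 passed between SNI and sham under desipramine, or 26.4%, beside 11.3% of all genes tested. This and the later shares of all genes tested include genes under 1 CPM, the mean that the 72 had to reach. Averaged over the treatments, 4 passed between SNI and sham, beside 1.84% of all genes. In the test of any difference among the 6 groups 3 passed, beside 1.55%. In the 10 other comparisons 0 of the 72 passed with edgeR. For these the share of all genes was 0.0%, except for desipramine against saline averaged over surgeries, at 0.0295%.

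The size of the difference between SNI and sham was set side by side for the 3 treatments. The median absolute log2 difference of the 72 genes was 0.22 on saline, 0.06 on tianeptine and 0.43 on desipramine, where all genes tested had 0.11, 0.05 and 0.18. The 3 comparisons use different mice. The difference itself is tested by the drug effect in SNI minus that in sham. For desipramine 17 of the 72 had an unadjusted p under 0.05 with edgeR, beside 12.3% of all genes, and for tianeptine 0, beside 4.2%. After adjustment 0 passed with edgeR, DESeq2 or limma-voom for either drug. Without SNI-DMI replicate 4, 6 passed for desipramine. Kcnc1 had the smallest adjusted p, 0.236, with a log2 difference of drug effects of 0.76 ± 0.22 (SE, edgeR).

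**Figure D3:**
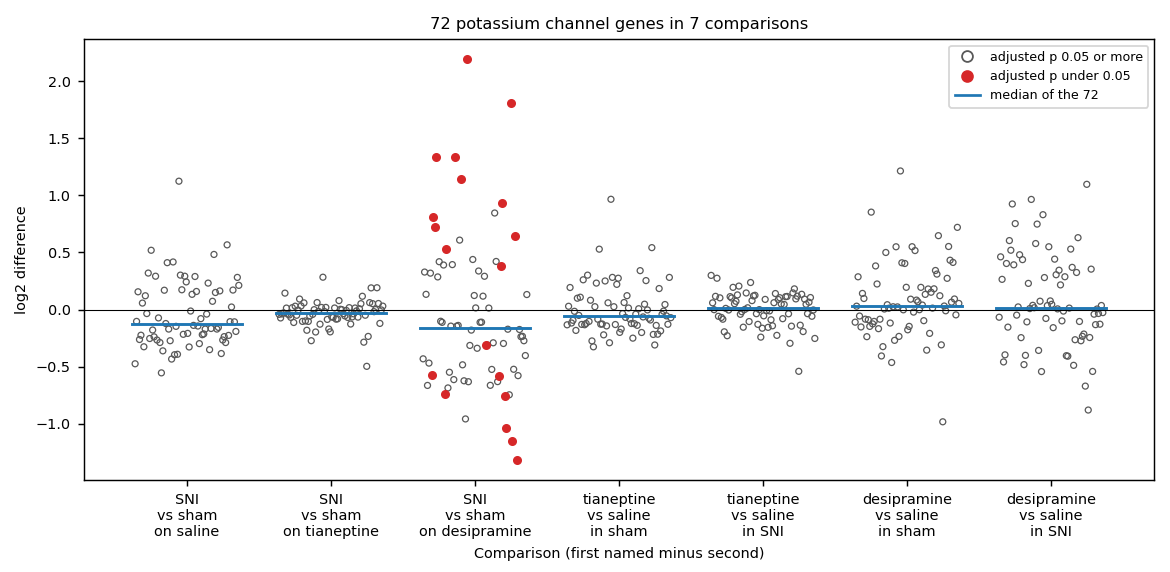
Log2 difference of each of the 72 potassium channel genes in 7 comparisons, with genes past an adjusted p of 0.05 in red and the median of the 72 as a blue line. SNI against sham on desipramine has 19 red points, 11 above 0 and 8 below.

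Under desipramine, 11 channel genes rose in SNI mice and 8 fell against sham, where 7.22% of all genes rose and 4.08% fell. Those that rose included Kcnc1 and Kcnc2 of the fast-firing pores, 2 rectifiers and 2 silent subunits. Those that fell included 4 silent subunits, Kcnh1 and Kcnip3. The median over the 72 was -0.16 on the log2 scale, with 29 higher and 43 lower, beside a median of 0.01 over all genes. In 10 of the 72 the groups did not overlap, beside 9.96% of all genes.

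The Kcnc genes encode pores of very fast kinetics, known from neurons that fire at high rates. In SNI 2 of them rose. Kcnc1 (ENSMUSG00000058975.7, chr7:46396497-46438704, + strand, mm10) was 198, 217, 206 and 193 CPM in the 4 Sham-DMI libraries and 325, 453, 351 and 212 CPM in the 4 SNI-DMI libraries. Replicates 1 to 3 of SNI lay above all sham libraries and replicate 4 among them. The log2 difference was 0.72 ± 0.16 (SE, edgeR adjusted p = 0.00948). Kcnc2 (chr10:112271121-112467024, + strand) was 46.1, 36.9, 51.5 and 23.2 CPM in sham and 88.5, 158, 113 and 39.2 CPM in SNI, again with replicate 4 inside the sham range. Its log2 difference was 1.33 ± 0.32 (edgeR adjusted p = 0.0128). Kcnc4 (0.42 ± 0.45) did not pass.

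The promoters of Kcnc1, Kcnc2 and Kcnj16 are shown because the Kcnc pair moved together and Kcnj16 had the smallest adjusted p of the 72. Each is the 250 bases before the start in RefSeq (build GRCm38.p6), on the strand of the gene. Capitals mark the GC box GGGCGG or its complement CCGCCC, and the cAMP response core TGACG or its complement CGTCA. Kcnc1 lies at chr7:46396218-46396467 (+), Kcnc2 at chr10:112270871-112271120 (+) and Kcnj16 at chr11:110967783-110968032 (+).
Kcnc1: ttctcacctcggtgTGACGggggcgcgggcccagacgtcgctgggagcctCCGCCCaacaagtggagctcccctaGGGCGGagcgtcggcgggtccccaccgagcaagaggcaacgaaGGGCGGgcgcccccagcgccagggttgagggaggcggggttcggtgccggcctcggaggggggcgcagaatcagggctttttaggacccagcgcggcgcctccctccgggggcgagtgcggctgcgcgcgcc
Kcnc2: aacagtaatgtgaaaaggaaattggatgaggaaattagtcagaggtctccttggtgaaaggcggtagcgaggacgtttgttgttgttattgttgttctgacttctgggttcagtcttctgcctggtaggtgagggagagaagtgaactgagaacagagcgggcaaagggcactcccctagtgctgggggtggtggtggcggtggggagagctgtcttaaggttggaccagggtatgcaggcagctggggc
Kcnj16: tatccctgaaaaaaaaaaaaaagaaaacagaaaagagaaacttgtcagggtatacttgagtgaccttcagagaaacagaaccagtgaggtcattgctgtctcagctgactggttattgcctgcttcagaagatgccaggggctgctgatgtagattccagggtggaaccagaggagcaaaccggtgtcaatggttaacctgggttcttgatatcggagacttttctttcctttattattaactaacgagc
The Kcnc1 stretch held 3 GC boxes and 1 cAMP core, with 74.4% G and C. The Kcnc2 stretch (52.8% G and C) and the Kcnj16 stretch (42.8%) held neither. Of the 72 genes, 49 had an entry in the RefSeq promoter table, and the entry nearest the gene start was used. The shares of all promoters count every entry. The median G and C was 61.6% in the 49 and 52.4% in all promoters, and the part of base composition in the shares below was not tested. GC boxes were in 25 of these 49 (51.0%), beside 32.7% of 32851 promoters of the same length, and cAMP cores in 9 (18.4%), beside 17.8%. The neuron-restrictive core CAGCACC (or GGTGCTG) was in 2 of the 49, or 4.08%, beside 5.73%. The TATA box TATAAA (or TTTATA) was in 1, or 2.04%, beside 12.4%. Of the 14 genes past the threshold that had a promoter entry, GC boxes were in 5 of the 10 that rose and 2 of the 4 that fell. These are letter matches in a fixed window and no evidence of binding.

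Kcnb2, a slow delayed rectifier pore that shapes repetitive firing, rose. It (chr1:15287254-15723750, + strand) was 23.9, 19.3, 19.95 and 23.2 CPM in Sham-DMI and 33.9, 48.3, 43.4 and 25.6 CPM in SNI-DMI. The groups did not overlap, and the log2 difference was 0.81 ± 0.19 (edgeR adjusted p = 0.00986).

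**Figure D4:**
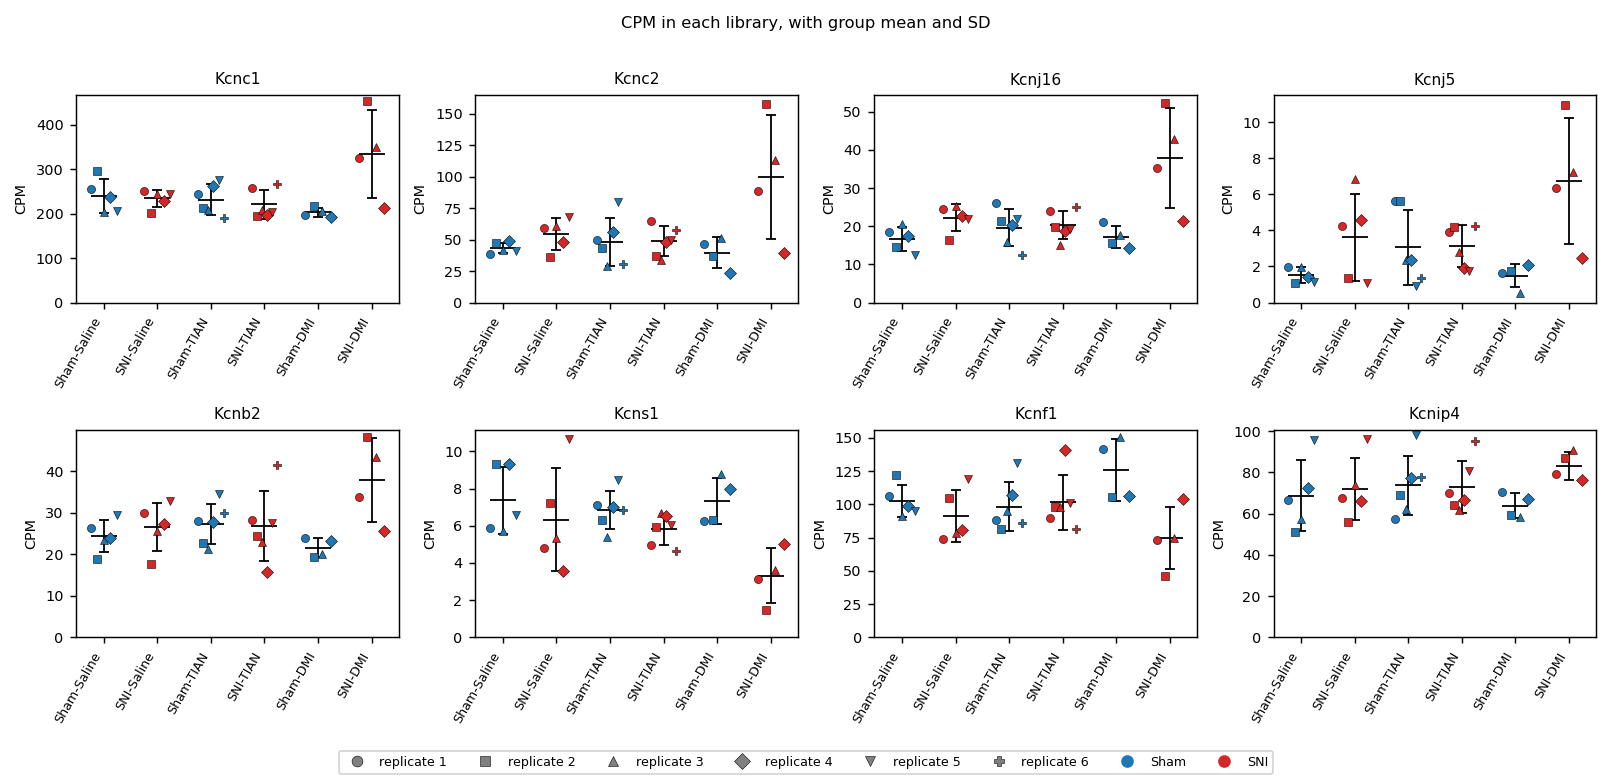
CPM of 8 of the potassium channel genes in each library of the 6 groups, with replicates as symbols and the group mean and SD. In SNI-DMI, replicates 1 to 3 stand away from Sham-DMI while replicate 4 lies near or among it, as for Kcnc1 at 212 CPM.

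Of the 8 Kcnh genes, which encode pores of the ether-a-go-go family, 2 rose and 1 fell. Kcnh8 was 1.35, 1.29, 1.65 and 1.01 CPM in Sham-DMI and 2.56, 4.81, 4.70 and 1.33 CPM in SNI-DMI (log2 difference 1.33 ± 0.31, edgeR adjusted p = 0.0111). Kcnh2, the pore of the rapid delayed rectifier known from the heart, was 49.5 to 62.5 CPM in sham and 55.7 to 103 CPM in SNI (0.53 ± 0.14, edgeR adjusted p = 0.0173). Without SNI-DMI replicate 2 its log2 difference was 0.35. Kcnh1 was 77.8 to 119 CPM in sham and 29.1 to 94.2 CPM in SNI and fell by 0.74 on the log2 scale (edgeR adjusted p = 0.0461). In all 3 genes replicate 4 of SNI lay within the sham range.

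Among the 10 Kcnj genes, 2 rose and none passed as lower. Kcnj16 (chr11:110968033-111027968, + strand), a rectifier subunit that joins Kcnj10 in glia and makes the channel sensitive to pH, was 21.2, 15.6, 17.6 and 14.3 CPM in Sham-DMI. It was 35.2, 52.3, 42.9 and 21.2 CPM in SNI-DMI. SNI replicate 4 was level with the highest sham library and the other 3 stood well above, and the log2 difference was 1.14 ± 0.23 (edgeR adjusted p = 0.00667). Kcnj5 (chr9:32314707-32344350, - strand), the scarcest of the G protein-gated subunits, was 1.62, 1.72, 0.551 and 2.06 CPM in sham and 6.33, 11, 7.21 and 2.44 CPM in SNI. The groups did not overlap, and the log2 difference of 2.19 ± 0.53 (edgeR adjusted p = 0.0125) was the widest of the 72.

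The rectifiers known from medium spiny neurons did not pass. Kcnj4 was 221, 204, 218 and 224 CPM in Sham-DMI and 127, 21.9, 96 and 202 CPM in SNI-DMI. Its groups did not overlap, but the log2 difference of -0.96 ± 0.35 had an edgeR adjusted p of 0.0746. Kcnj2 (-0.48 ± 0.32) and Kcnj12 (-0.14 ± 0.13) did not pass either. Summed medium spiny markers were 8214, 10941, 6466 and 12537 CPM in the same Sham-DMI libraries and 7414, 1815, 5234 and 11205 CPM in the SNI-DMI libraries.

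Kcnq3 (-0.31 ± 0.19) and Kcnq5 (-0.66 ± 0.23), pores of the M current, did not pass.

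Of the 9 silent subunits, 2 rose and 4 fell. These proteins form no channel alone and assemble with Kcnb pores. Kcng4 was 1.23, 1.17, 1.17 and 1.13 CPM in Sham-DMI and 3.34, 7.59, 4.70 and 0.888 CPM in SNI-DMI (log2 difference 1.81 ± 0.47, edgeR adjusted p = 0.0173). The sham libraries were even, and the SNI libraries ran from below them to several times above. In Sham-Saline, Kcng4 was 2.19, 3.79, 1.44, 3.14 and 1.12 CPM, so most of those libraries also lay above Sham-DMI. Kcns3 was 2.81 to 4.83 CPM in sham and 4.26 to 7.63 CPM in SNI (0.65 ± 0.20, edgeR adjusted p = 0.0350). Kcnv1 was 74.8, 45.4, 69.6 and 43.1 CPM in sham and 21.1, 6.70, 16.8 and 48.8 CPM in SNI (-1.32 ± 0.35, edgeR adjusted p = 0.0189). Only SNI replicate 4 was in the sham range, and without it the log2 difference of Kcnv1 was -1.997. Kcns1 was 6.25, 6.31, 8.78 and 7.97 CPM in sham and 3.15, 1.44, 3.64 and 5.0 CPM in SNI, with no overlap (-1.15 ± 0.28, edgeR adjusted p = 0.0138). Kcng1 fell by 1.04 (edgeR adjusted p = 0.0208), with overlap, and Kcnf1 by 0.75 (edgeR adjusted p = 0.0197), without.

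Of the 9 auxiliary subunits, 2 rose and 1 fell. Kcnip4 was 58.4 to 70.6 CPM in Sham-DMI and 76.1 to 91 CPM in SNI-DMI, without overlap (0.38 ± 0.11, edgeR adjusted p = 0.0245). Kcnmb2, a beta subunit of the large-conductance calcium-activated channel, was 1.01 to 2.35 CPM in sham and 1.41 to 3.92 CPM in SNI (0.93 ± 0.28, edgeR adjusted p = 0.0310). Kcnip3, a calcium-binding protein that joins Kcnd pores and also binds DNA, was 134 to 182 CPM in sham and 72.7 to 141 CPM in SNI. Kcnip3 fell by 0.58 on the log2 scale (edgeR adjusted p = 0.0270).

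No Kcna, Kcnd, Kcnk or calcium- or sodium-activated gene passed. The log2 differences ran from -0.66 (Kcna4) to 0.33 (Kcna2) in the 6 Kcna genes, from -0.11 (Kcnd2) to 0.39 (Kcnd3) in the 3 Kcnd genes and from -0.34 (Kcnk2) to 0.44 (Kcnk10) in the 9 Kcnk genes. In the 7 genes grouped as calcium- or sodium-activated they ran from -0.58 (Kcnma1) to 0.13 (Kcnu1, in the group by name only).

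**Figure D5:**
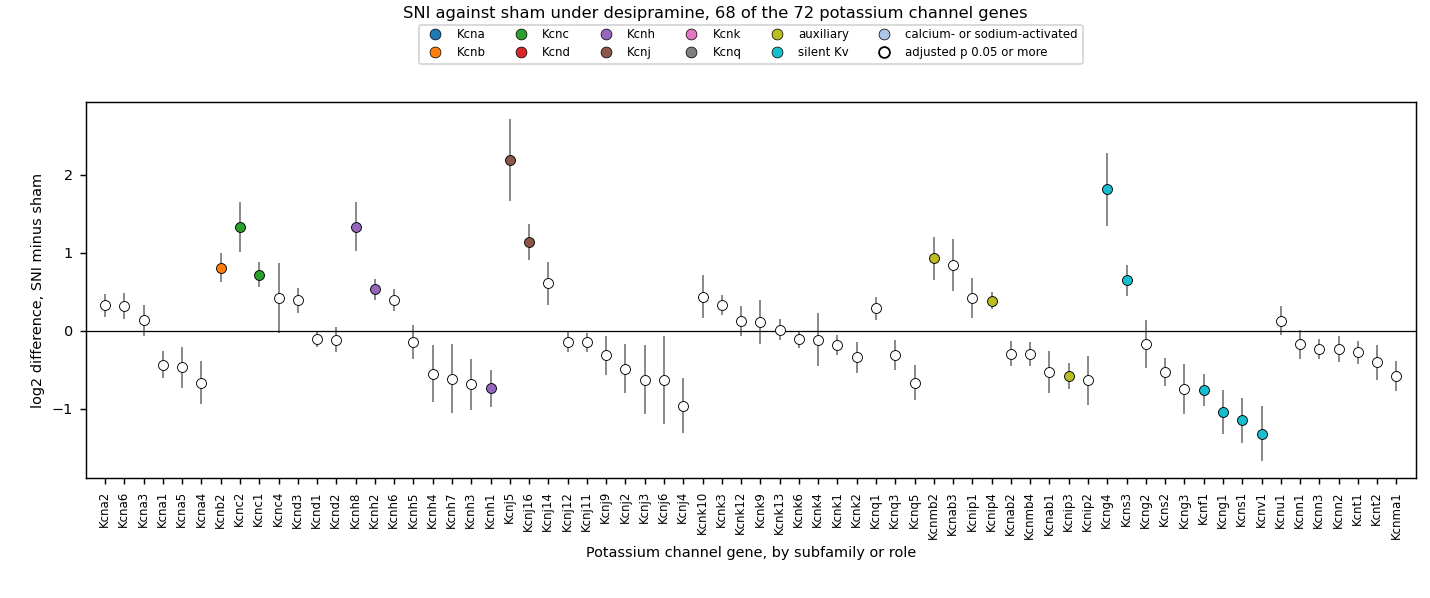
Log2 difference of SNI minus sham under desipramine with its SE for 68 of the 72 potassium channel genes, grouped by subfamily or role; filled symbols passed an adjusted p of 0.05. Filled points stand above 0 in Kcnc, at both signs in the silent subunits, and are absent from Kcna, Kcnd and Kcnk.

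The 19 genes were chosen by their call on these libraries, so where the libraries lay is a description. Replicates 1, 2 and 3 each lay outside the whole sham range for 19 of 19 genes, and replicate 4 for 8, in Kcng4 on the opposite side to the others. Of all 72 genes, replicates 1, 2, 3 and 4 lay outside the sham range for 43, 59, 52 and 14. The number that passed went to 0 without SNI-DMI replicate 2, 6 without SNI-DMI replicate 3, 10 without Sham-DMI replicate 3, 12 without Sham-DMI replicate 1 and 39 without SNI-DMI replicate 4. Without SNI-DMI replicates 2 and 3 together 0 passed. There the log2 differences kept their sign in 19 of 19 genes, and their median size went from 0.81 to 0.48. All desipramine libraries belong to the first set, and fitted on that set alone 18 passed.

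Marker genes of cell types were read in the same comparison of SNI and sham on desipramine, where 11.3% of all genes passed. Summed cholinergic markers were 66.2, 87.9, 35.5 and 114 CPM in Sham-DMI and 223, 295, 234 and 109.9 CPM in SNI-DMI, and 6 of 6 rose. Cortical excitatory markers were 1104, 606, 1439 and 226 CPM in sham and 232, 197, 261 and 376 CPM in SNI, with 11 of 13 lower and 0 past the threshold. Septal, preoptic and hypothalamic markers were 797 to 1496 CPM in sham and 1276 to 1761 CPM in SNI, with 15 of 18 tested higher, of which 5 passed, and 1 that fell. Thalamic and habenular markers were 77.2 to 94.7 CPM in sham and 89.8 to 220.3 CPM in SNI, and 3 of 6 tested rose. Markers of fast-spiking and other interneurons, the cells known for Kcnc1 and Kcnc2, were 499 to 729 CPM in sham and 453 to 686 CPM in SNI, and 3 of 11 rose and 1 fell. Astrocyte markers were 3592 to 3901 CPM in sham and 3262 to 4124 CPM in SNI, with 9 of 10 higher, of which 2 passed. Medium spiny markers were lower in 19 of 20, with 0 past the threshold. Nuclear noncoding RNA took 0.707 to 0.887% of counts in Sham-DMI and 0.894 to 1.04% in SNI-DMI. With scores of the medium spiny and septal markers as covariates, 0 of the 72 passed, and the 19 log2 differences kept their sign with a median size of 0.48. Without Sham-DMI replicates 1 and 3, the pair with high cortical markers, 0 passed and the median size was 0.79. The parts of cholinergic neurons, thalamic and habenular neurons, interneurons and astrocytes in the calls were not tested. Nor were those of oligodendrocytes, their precursors, fibroblasts and meninges, endothelial cells and mural cells.

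Averaged over the 3 treatments, Kcns3, Kcnj16 and Kcnj5 rose in SNI, where 1.53% of all genes rose. Kcns3 had a log2 difference of 0.47 ± 0.10 (edgeR adjusted p = 0.0323), Kcnj16 of 0.54 ± 0.12 (edgeR adjusted p = 0.0324) and Kcnj5 of 1.20 ± 0.27 (edgeR adjusted p = 0.0331). Of the 72 genes 46 were lower and 26 higher, with a median of -0.10. This average includes the desipramine libraries, so it is not independent of the values above. In the same comparison 6 of 6 cholinergic markers were higher and 1 passed, and 19 of 20 medium spiny markers were lower and 0 passed. Of the septal, preoptic and hypothalamic markers tested, 13 of 18 were higher and 2 passed. Higher were also 3 of 6 thalamic and habenular markers and 7 of 11 interneuron markers, with 1 past the threshold in each list. Markers of fibroblasts and meninges (10 of 10), mural cells (11 of 11) and endothelial cells (10 of 10) were lower, with 0 past the threshold. In the test of any difference among the 6 groups, Kcnj16 (edgeR adjusted p = 0.0350), Kcnh8 (edgeR adjusted p = 0.0487) and Kcns3 (edgeR adjusted p = 0.0490) passed.

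These calls depended on single libraries and on the tool. The 4 of the average went to 0 in 15 of the 30 fits that left out 1 library, namely Sham-Saline 1 or 4, Sham-TIAN 3 or 6, any of Sham-DMI 1 to 4, SNI-Saline 1, 3 or 4, SNI-TIAN 1 or 6, and SNI-DMI 2 or 3. They went to 7 without Sham-TIAN 1, 9 without SNI-Saline 2 and 29 without SNI-DMI 4. The 3 of the 6-group test went to 0 or 1 in 24 of the 30 fits, to 2 without SNI-Saline 3 and 2 without SNI-TIAN 6, to 6 without SNI-Saline 2, 5 without SNI-TIAN 4 and 28 without SNI-DMI 4. They were unchanged in number only without Sham-TIAN 1. DESeq2 called 11 and 17 in the 2 tests and limma-voom 0 in both.

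SNI against sham on saline gave 0 calls with edgeR, DESeq2 and limma-voom, and 6 of the 72 genes (8.33%) had an unadjusted p under 0.05 with edgeR, beside 9.74% of all genes. Kcns3 was the 1 gene of the 72 whose groups did not overlap, beside 0.746% of all genes. It was 3.49, 3.61, 3.77, 2.58 and 3.62 CPM in Sham-Saline and 4.61, 4.55, 5.59, 5.46 and 5.02 CPM in SNI-Saline (0.57 ± 0.18, edgeR adjusted p = 0.420). Kcna1 was 124, 107, 85.1, 115 and 125 CPM in Sham-Saline and 73.9, 98.1, 60.8, 61.9 and 109 CPM in SNI-Saline, with overlap (-0.48 ± 0.16, edgeR adjusted p = 0.436). Kcnj5 was 1.98, 1.09, 1.97, 1.39 and 1.12 CPM in Sham-Saline and 4.22, 1.35, 6.82, 4.56 and 1.07 CPM in SNI-Saline. There 3 libraries were above all sham libraries and 2 among or below them (1.12 ± 0.46, edgeR adjusted p = 0.458). In this comparison 19 of 20 medium spiny and 12 of 13 cortical excitatory markers were lower. So were 10 of 10 endothelial markers, 11 of 11 mural markers and 10 of 10 markers of fibroblasts and meninges. Higher were 14 of 18 septal, preoptic and hypothalamic markers tested and 6 of 6 cholinergic markers. Of these markers 0 passed, and the part of cell types in these differences was not tested.

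On tianeptine, SNI against sham again gave 0 calls with the 3 tools, and 0 of the 72 had an unadjusted p under 0.05 with edgeR, beside 1.21% of all genes. The lowest, median and highest values of Kcns3 were 2.92, 3.79 and 5.39 CPM in Sham-TIAN and 3.25, 4.54 and 5.46 CPM in SNI-TIAN, a log2 difference of 0.19 with an interval of -0.14 to 0.52.

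Tianeptine against saline gave 0 calls in each surgery and in their average with edgeR, DESeq2 and limma-voom. With edgeR 3 of the 72 had an unadjusted p under 0.05 in sham mice, 0 in SNI mice and 1 in the average. The shares of all genes were 6.84%, 2.87% and 4.74%, each above that of the 72. Those in sham mice were Kcnd3 (0.30 ± 0.14), Kcnj5 (0.97 ± 0.44) and Kcng2 (0.54 ± 0.26). Kcnj5 was 5.65 and 5.64 CPM in Sham-TIAN replicates 1 and 2 and at most 2.37 CPM in the other Sham-TIAN libraries. Cortical marker sums in replicates 1 and 2 were 176 and 184 CPM, the lowest of the 30 libraries. Of the septal, preoptic and hypothalamic markers tested, 17 of 18 were higher in this comparison and 0 passed. The part of cell types in the Kcnj5 difference was not tested. Kcng2 was 12.6 CPM in Sham-TIAN replicate 1 and at most 8.66 CPM in the other Sham-TIAN libraries, and without that replicate its log2 difference was 0.28. The G protein-gated subunits, which opioid receptors open, varied widely. Kcnj3 was 42.6, 37.4, 47.1, 50.1 and 48.6 CPM in Sham-Saline and 23.3, 44.3 and 139 CPM (lowest, median and highest) in Sham-TIAN, a log2 difference of 0.06 with a 95% interval of -0.72 to 0.84. The tianeptine libraries lay on both sides of the saline libraries. For Kcnj6 the log2 difference was 0.28 in sham (-0.74 to 1.31) and -0.04 in SNI (-1.03 to 0.96). For Kcnj9 it was 0.02 in sham (-0.43 to 0.48) and -0.13 in SNI (-0.57 to 0.32). These intervals hold changes in either direction.

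Desipramine against saline gave 0 calls among the 72 with edgeR and limma-voom. In SNI mice 18 (25%) had an unadjusted p under 0.05 with edgeR, beside 17.5% of all genes. There DESeq2 called 5, and 24 passed with edgeR without SNI-DMI replicate 4. The smallest adjusted p was that of Kcnk3, an acid-sensitive leak channel. It was 21.4, 17.3, 19, 19.6 and 23.4 CPM in SNI-Saline and 25.7, 32.4, 29 and 19.9 CPM in SNI-DMI, with replicate 4 among the saline libraries (0.44 ± 0.12, edgeR adjusted p = 0.0971). In sham mice 8 (11.1%) had an unadjusted p under 0.05 with edgeR, beside 7.63% of all genes, and DESeq2 called 0. Kcnt2, a sodium-activated channel, came first with 14, 8.38, 16, 12.2 and 19.3 CPM in Sham-Saline and 25.9, 12.7, 28.2 and 13.9 CPM in Sham-DMI (0.72 ± 0.21, edgeR adjusted p = 0.547). Its high values were in Sham-DMI replicates 1 and 3, whose cortical marker sums were 1104 and 1439 CPM, and the part of cortical tissue was not tested. Averaged over surgeries, 16 (22.2%) had an unadjusted p under 0.05 with edgeR, beside 12.5% of all genes. DESeq2 called 1, and edgeR called 3 without SNI-DMI replicate 4. Kcnd3 came first, with a log2 difference of 0.43 ± 0.11 (edgeR adjusted p = 0.172). It was 69.9 to 83.5 CPM in Sham-Saline, 77.5 to 115 CPM in Sham-DMI, 70.7 to 105 CPM in SNI-Saline and 95.6 to 168 CPM in SNI-DMI, with overlap in both surgeries.

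Partners of the channels were read in SNI against sham on desipramine. In this comparison the channel calls went to 0 without SNI-DMI replicate 2 or with marker scores. Such fits are not given here for the partners, so their calls carry the same limit. Of 26 tested genes whose proteins bind, anchor or modulate the channels, 3 rose and 2 fell, or 19.2%, beside 11.3% of all genes. Amigo2, an adhesion protein, rose (1.14 ± 0.29, edgeR adjusted p = 0.0160). So did Lrrc55, a gamma subunit of the large-conductance channel (1.02 ± 0.28, edgeR adjusted p = 0.0209), and Vapb, an endoplasmic reticulum protein (0.33 ± 0.08, edgeR adjusted p = 0.0145). Stx1a, a membrane fusion protein, fell by 1.37 (edgeR adjusted p = 0.0357), and the scaffold gene Dlg4 fell by 0.41 (edgeR adjusted p = 0.0391). Of the 4 hyperpolarization-activated cation channels, Hcn4 (1.23 ± 0.29, edgeR adjusted p = 0.0107) and Hcn3 (0.76 ± 0.21, edgeR adjusted p = 0.0228) rose. Summed, the 4 were 215 to 251 CPM in Sham-DMI and 218 to 376 CPM in SNI-DMI, with overlap. Of 30 Gi/o signalling genes 3 passed, or 10%, below the 11.3% of all genes. The nociceptin receptor gene Oprl1 rose (0.62 ± 0.17, edgeR adjusted p = 0.0222). The G protein subunit genes Gnb2 (edgeR adjusted p = 0.0346) and Gnao1 (edgeR adjusted p = 0.0324) fell by 0.32 and 0.26.

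The counts of some genes carry a limit of annotation. More than 10% of the exon bases of Kcna6, Kcnj3, Kcnk2 and Kcnmb4 overlap a gene on the opposite strand in the annotation, from 12.2% in Kcnk2 to 39.6% in Kcna6. The sources used give no strand setting for the counting, so reads of the partner may be in their counts. None of these is among the genes that passed.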

How the data were processed

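Bulk RNA was sequenced from the nucleus accumbens of 30 mice, extracted with TRIzol and made into libraries with the Illumina Stranded mRNA Prep kit, per the labels. The authors deposited raw counts per Ensembl gene ID. Trim Galore, HISAT2, SAMtools and featureCounts and the build mm10 are named in the submitters' processing notes. The sources used give no versions, strand setting or annotation release.

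Groups were taken from the sample titles. Symbols, positions and merged-exon lengths came from GENCODE M21 (mm10), which matched 54349 IDs exactly and 792 without the version. The 260 unmatched IDs held 0.0509% of counts. Counts were filtered with filterByExpr, which kept 23736 genes and 99.925% of counts, scaled by TMM, and fitted in edgeR 4.0.16 (R 4.3.3) by the robust quasi-likelihood method with group and library set as terms. There were 23 residual degrees of freedom, and the common biological coefficient of variation was 17.494%. P-values were two-sided and adjusted by Benjamini-Hochberg over all genes tested in each of 13 comparisons, with a threshold of 0.05. They measure the spread between animals. No 2 libraries of a group agreed within sampling noise.

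Alternatives were DESeq2 1.42.0, limma-voom (limma 3.58.1), DESeq2 size factors, no filter, no set term, a replicate block, the first library set alone, marker scores as covariates and each library left out. Another 2, scores with cortical markers and a fit without Sham-DMI replicates 1 and 3, were chosen after seeing the data. The code was tested on simulated data. Genes named with a level were the highest and lowest of each subfamily, and genes named with a difference were all that passed, in each comparison the 4 higher and 4 lower with the smallest p, and a list of channels of known role. The members, the partner and marker lists and this rule were chosen with earlier results of these data known. Promoters came from RefSeq (GRCm38.p6). Some genes that the counts of channel genes include are not reported here.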

Additional observations from a re-analysis of the deposited data

Results flagged for a closer look

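Of the channel genes that passed between SNI and sham under desipramine, 17 were checked for a library far from the rest in each of the 6 groups, by Dixon's test at the 95% level. Of 102 such checks 3 found a library apart, and chance gives about 1 in 20. Kcns3 was lowest in Sham-Saline replicate 4, at 2.58 CPM against 3.49 CPM in the nearest library. The highest SNI-TIAN library for Kcnf1 was replicate 4, at 141 CPM against 101 CPM in the nearest. The same library was highest for Kcnip3, at 179 CPM against 145 CPM, and its cortical markers summed to 1136 CPM.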

How the results depend on the processing

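The 19 channel genes past the threshold between SNI and sham under desipramine were 23 with DESeq2, 19 with DESeq2 size factors, limma-voom or a replicate block, 18 in the first library set and 15 without the filter or the set term. Of the 19 as reported, 19 were among those of DESeq2 and of its size factors, 16 of limma-voom, 18 of the replicate block and 17 of the first set. They were 0 with marker scores as covariates, with cortical scores added, without Sham-DMI replicates 1 and 3, and without SNI-DMI replicates 2 and 3. The 4 of the average over treatments became 11 with DESeq2 and 2 without the set term. The 3 of the test among 6 groups became 17 with DESeq2 and 1 with DESeq2 size factors or without the set term. Both became 0 without the filter, with limma-voom, with the replicate block, in the first set alone, with either set of marker scores, and without Sham-DMI replicates 1 and 3, SNI-DMI replicates 2 and 3 or Sham-Saline replicates 2 and 3. DESeq2 called 5 for desipramine against saline in SNI mice and 1 averaged over surgeries, where edgeR called 0. Leaving out 1 library at a time gave 0 to 39 under desipramine, 0 to 29 for the average, 0 to 28 among 6 groups, 0 to 24 for desipramine in SNI mice, 0 to 3 for its average, 0 to 6 for the difference of desipramine effects and 0 to 0 in the other comparisons. None of the 62 named log2 differences changed sign under the alternatives run. With marker scores 23 of them were no longer past the threshold, which were all of the 62 that had passed as reported. The causes were not tested. The fits that leave libraries out also have fewer samples, and the part of that was not tested either. Replicate numbers did not pair the libraries: deviations of same-numbered libraries of the first set had a median correlation of -0.00844 over 60 pairs, beside 0.00979 over 180 other pairs, and 2 of 24 libraries correlated best with their own number. Kcnj5, Kcng4, Kcnh8 and Kcnmb2 are limited by depth, and the smallest count of any channel gene in a library was 17.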
